A study of Mus musculus with 9 samples.

Results

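The milk and secretory genes described here are 9 of the 54281 genes listed in the deposited tables. They are the caseins Csn1s1 and Csn3, the WAP four-disulfide core genes Wfdc18 and Wfdc2, the iron-binding proteins Ltf (lactoferrin) and Trf (transferrin), and the milk fat globule genes Btn1a1, Xdh and Mfge8. They were found by matching Ensembl identifiers to mouse symbols, each symbol matched 1 row, and all 9 passed the filter on low counts. That filter asked for at least 0.144 CPM (reads of the gene scaled to a common library total) in 3 libraries, which Csn1s1 and Csn3 met in 4 of 9 libraries and the others in 7 to 9.

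RNA was sequenced in bulk from Comma-1D, a mouse mammary epithelial line obtained from a repository and sorted by the surface proteins Sca-1 and EpCAM. Population L was Sca-1 low and EpCAM high, population bi was high for both, and population B was Sca-1 high and EpCAM low. Each population came from cells transduced with the MYC oncogene, cells transduced with an activated Her2 oncogene and control cells, which gave 9 libraries, 1 for each population and arm. The shared growth medium held calf serum, epidermal growth factor, insulin and gentamicin, and no prolactin or glucocorticoid is named for it. Per the labels every library came from this 1 line; the promoter and species of the oncogenes, the number of cultures and whether controls carried a vector are not given in the sources used here. Each population was therefore compared over its 3 arms and each arm over its 3 populations, so the spread between libraries holds any real dependence of one on the other, and it may be technical.

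Library totals ran between 46.9 M and 98.9 M reads. In every population the MYC library had the highest level of Myc and the Her2 library that of Erbb2, the gene of Her2. Epcam stood at 376 to 550 CPM in L and 240 to 319 CPM in bi, against 0.171 to 0.796 CPM in B, and Ly6a, which encodes Sca-1, was lowest in L in every arm. Summed over 10 epithelial markers the level was 1258 to 2858 CPM in L and 756 to 871 CPM in bi, against 2.61 to 6.93 CPM in B, where Cldn3 and Krt19 had 3 reads or fewer in each library. The 8 basal epithelial markers summed to 1853 to 4199 CPM in L, 4319 to 6241 CPM in bi and 1933 to 4315 CPM in B. The 10 fibroblast or mesenchymal markers summed to 274 to 403 CPM in L, 232 to 532 CPM in bi and 527 to 574 CPM in B, most of it Vim. Endothelial markers reached at most 6.05 CPM, adipocyte markers 1.32 CPM and hepatocyte markers 0.159 CPM in any library.

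Milk proteins are made by alveolar cells of the mammary gland. Caseins form the micelles of milk and are induced by prolactin through Jak2 and Stat5, together with glucocorticoids and the transcription factor Elf5. Milk fat leaves the cell as droplets wrapped in plasma membrane, and butyrophilin, xanthine dehydrogenase and Mfge8 are proteins of that membrane, while lactoferrin, transferrin and the WAP family belong to the whey and to mucosal secretions.

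In the genome build of the files (mm10, GENCODE M21 coordinates) the caseins lie in the casein cluster, Csn1s1 at chr5:87666208-87682578 and Csn3 at chr5:87925579-87932665, 243 kb further on the same strand. Wfdc18 lies at chr11:83709015-83711348 and Wfdc2 at chr2:164562413-164568510, both on the plus strand. Ltf, at chr9:111019271-111042767 on the plus strand, and Trf, at chr9:103204001-103230444 on the minus strand, share a chromosome. Btn1a1 (chr13:23456992-23465901), Xdh (chr17:73883895-73950196) and Mfge8 (chr7:79133768-79149060) are on the minus strand.

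Promoter sequences from RefSeq (GRCm38.p6) were matched for 5 of the 9 genes. Those of the 3 genes that differed most between libraries of 1 population are printed here, because they differ in what they hold. They run 5′ to 3′ on the plus strand up to the RefSeq transcription start, and capitals mark motif matches. The windows are chr5:87665958-87666207 for Csn1s1, chr11:83708754-83709003 for Wfdc18 and chr9:111019042-111019270 for Ltf, the last cut short by 21 bases to end at the GENCODE start of the gene.
Csn1s1: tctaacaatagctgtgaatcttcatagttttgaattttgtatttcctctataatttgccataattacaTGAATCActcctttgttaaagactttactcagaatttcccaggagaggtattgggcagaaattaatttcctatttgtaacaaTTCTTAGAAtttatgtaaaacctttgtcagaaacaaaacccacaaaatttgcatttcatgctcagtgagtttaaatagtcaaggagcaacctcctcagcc
Wfdc18: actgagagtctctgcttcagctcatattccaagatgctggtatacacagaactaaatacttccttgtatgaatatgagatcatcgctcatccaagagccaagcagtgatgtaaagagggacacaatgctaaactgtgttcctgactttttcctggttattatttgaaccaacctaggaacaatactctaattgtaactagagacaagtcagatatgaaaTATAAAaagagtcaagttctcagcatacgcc
Ltf: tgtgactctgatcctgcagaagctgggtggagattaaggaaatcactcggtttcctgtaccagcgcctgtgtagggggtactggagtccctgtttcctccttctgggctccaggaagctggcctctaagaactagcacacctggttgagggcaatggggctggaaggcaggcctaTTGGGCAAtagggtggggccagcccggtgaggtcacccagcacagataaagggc

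Both strands of the 250 bases before each RefSeq start were searched for 6 motifs, and the share of 32851 RefSeq promoters of the same length that hold each is given beside it. The Csn1s1 window holds TTCTTAGAA at positions -100 to -92 from the start, a match to the STAT5 motif TTCNNNGAA (7.02% of promoters). It also holds TGAATCA at -182 to -176, a match to the AP-1 motif TGANTCA (6.75%). The Wfdc18 window holds the TATA motif TATAAA at -31 to -26 (12.4%). The Ltf window holds TTGGGCAA, as printed, at -75 to -68 from the RefSeq start, a minus-strand match to the C/EBP motif TTGCNNAA (9.56%). No window of the 5 genes holds the glucocorticoid receptor motif ACANNNTGT (5.84%) or the E-box CACGTG (6.02%), those of Wfdc2 and Mfge8 hold none of the 6 motifs, and no matches overlap. A match is a description of the sequence, and binding was not measured.

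The EpCAM-high, Sca-1-low population L carried more RNA of most of these genes than population B. In L against B 7 of the 9 genes rose and none fell at a Benjamini-Hochberg adjusted p under 0.05 in edgeR's quasi-likelihood test, while 20.8% of the 23834 genes tested were called and 11.5% were called higher. The median log2 fold change was 3.05 over the 9 genes, against 0.04 over all genes tested. The CPM of the 3 L libraries and the 3 B libraries did not overlap for the same 7 genes, against 31.3% of all genes tested. Xdh and Mfge8 were not called. Csn1s1 and Csn3 are among the 7, and they passed the filter on low counts through the 3 L libraries, with 1 further library over it each (bi MYC for Csn1s1, B Her2 for Csn3). A gene kept for its level in L had to differ there, so the count and the median are given as a description. In bulk RNA, fewer cells of a type and less RNA per cell cannot be told apart.

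In bi against B 3 of the 9 genes rose, Wfdc2, Wfdc18 and Btn1a1, and none fell, against 13% of genes called and 7.88% called higher among all genes tested. Wfdc2 and Wfdc18 met the filter on low counts in 7 libraries, those of L and bi and B control. They were thus kept for their level in L and bi, and their calls against B are given as a description. The median log2 fold change of the 9 genes was 1.496, against 0.03 over all genes. The groups did not overlap for 5 genes (the 3 called, Trf and Mfge8, Mfge8 being lower in bi), against 26.2% of all genes. In L against bi the caseins Csn1s1 and Csn3 rose and none of the 9 fell, against 0.751% called and 0.256% called higher among all genes tested. Both caseins entered the test through their L libraries, so nothing is read from this count. The groups of L and bi did not overlap for 4 genes (Csn3, Wfdc2, Ltf and Trf), against 9.95% of all genes. This was on plain CPM, and after the TMM scaling used in the test the groups overlapped for Wfdc2 and Ltf.

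**Figure D1:**
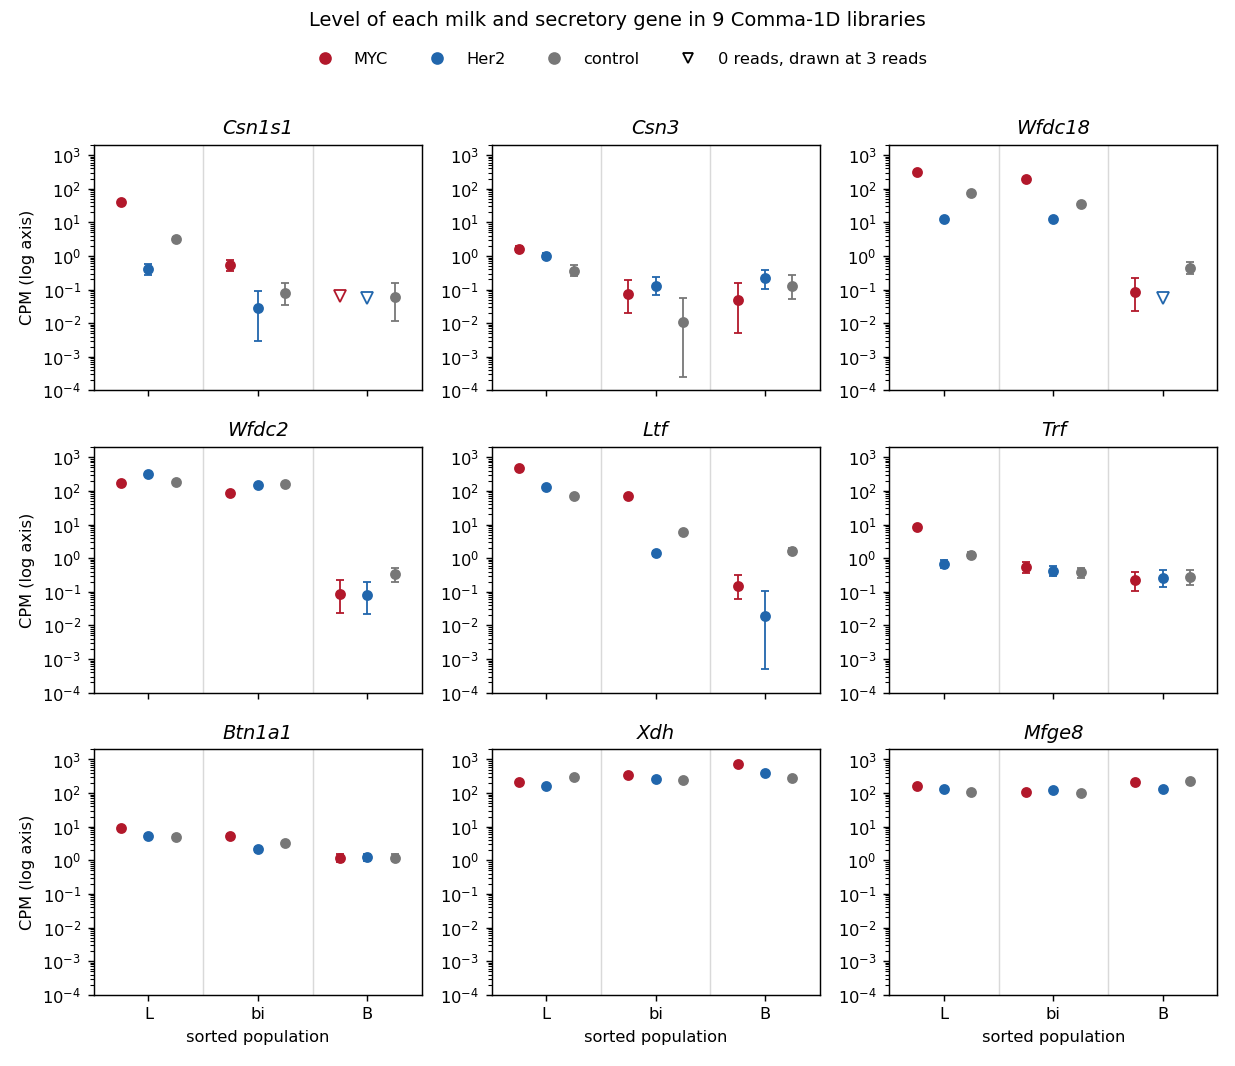
Each panel plots 1 gene, with the sorted population on the horizontal axis, CPM on a log axis and 1 point per library, coloured by arm. Bars are exact Poisson 95% intervals of the read count, and open triangles are libraries with 0 reads, drawn at the level of 3 reads. Csn1s1, Wfdc18, Wfdc2 and Ltf stay at or under 1.61 CPM in the B libraries, while Xdh and Mfge8 keep between 101 and 714 CPM in all 9 libraries.

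Csn1s1, the alpha-S1 casein, stood at 39.0 CPM in L MYC, 0.407 CPM in L Her2 and 3.24 CPM in L control. In bi it was at 0.543 CPM with MYC, 0.0277 CPM with Her2 and 0.0810 CPM in the control. In B it had 0 reads in both oncogene libraries, which allows up to 0.0639 CPM with MYC and 0.0581 CPM with Her2 (3 reads), and 3 reads or 0.0619 CPM in the control. The gene was thus mainly an L gene, and L MYC alone held 91.4% of its summed CPM in L. The 3 L libraries had 2979 reads together and the 3 B libraries 3 reads, a ratio of 688 after scaling to library totals, with an exact binomial 95% interval of 235 to 3337 that covers counting error only, as do all intervals given here. The fitted log2 fold change was 8.52 ± 0.89 (SE, adjusted p = 0.000159) in L against B. That fitted value depends on the handling of the empty libraries, and it was 7.44 without the L MYC library, 6.12 without B MYC and 12.89 without B control. The call was lost in limma on the deposited TPM values, as log2(TPM + 1) (adjusted p = 0.0614).

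Csn1s1 was also higher in L than in bi, although L Her2 lay below bi MYC, with 2979 reads against 39 and a log2 fold change of 5.41 ± 0.65 (adjusted p = 0.0103). Within each arm L was higher, 71.8-fold with MYC (interval 49.9 to 107), 16.6-fold with Her2 (4.23 to 143) and 40.0-fold in the controls (20.0 to 93.8). The call was lost without L MYC (4.44, adjusted p = 0.0899) and without bi MYC (0.0674), and on TPM values (0.148 and 0.453 with 0.1 and 1 added). Between bi and B the value was 3.11 ± 1.05 (adjusted p = 0.0872), and it passed the threshold without B control (0.00941).

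Csn3, the kappa casein that keeps micelles in solution, was a low-count gene. It reached 1.62 CPM in L MYC, 1.002 CPM in L Her2 and 0.368 CPM in L control, from 112, 76 and 28 reads. In bi it was at 0.0735 CPM with MYC, 0.130 CPM with Her2 and 0.0111 CPM in the control, and in B at 0.0482, 0.223 and 0.124 CPM in the same order of arms. Each L library stood above every bi and B library, and bi was not above B. Csn3 rose by 2.76 ± 0.61 in L against B (adjusted p = 0.0108) and by 3.79 ± 0.63 in L against bi (0.0326). The value of L against B was 2.07 without B MYC and 3.43 without B control, and that call was lost without the 3 MYC libraries (adjusted p = 0.0797). The call of L against bi was lost on leaving out L MYC (adjusted p = 0.148), L Her2 (0.0858), bi MYC (0.15), bi Her2 (0.109) or bi control (0.0728). Csn3 has 216 reads in L over 3 libraries, 16 in bi and 20 in B.

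Per kilobase of mRNA, the scale on which genes can be compared, the mean CPM of Csn1s1 in L was 10.1 and that of Csn3 0.623. The other caseins and classical milk proteins were not seen at a level that could be tested. Csn2, the beta casein, had 21.4 estimated reads over all 9 libraries, Wap had 27, Csn1s2b 78.9 and Lalba, the lactose synthase cofactor, 1, while Csn1s2a and Glycam1 had 0. Csn1s1 thus had the most reads of the caseins listed.

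Wfdc18, a small secreted protein with a WAP four-disulfide core, was next to Wfdc2 the highest of the 9 genes per kilobase in L and bi. It stood at 305 CPM in L MYC, 12.7 CPM in L Her2 and 73.9 CPM in L control. In bi it was at 190, 12.5 and 35.4 CPM with MYC, with Her2 and in the control. In B it was at 0.0853 CPM with MYC, at 0 reads with Her2 (up to 0.0581 CPM) and at 0.444 CPM in the control. L and bi were alike in order, MYC above control above Her2, and both lay far above B. The log2 fold change was 8.91 ± 0.75 in L against B (adjusted p = 4.11e-05) and 8.39 ± 0.74 in bi against B (0.000103), where the summed read ratios were 685 (474 to 1031) and 342 (237 to 515). Without the B control library they were 11.59 and 11.05, and without B MYC 7.69 and 7.16, each still called; bi against B was 9.03 without bi control. In L against bi it was 0.51 ± 0.47 (adjusted p = 0.977).

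Wfdc2, a secreted WAP-domain protein of epithelia, was called in both comparisons with B. It stood at 168 CPM in L MYC, 325 CPM in L Her2 and 182 CPM in L control, and in bi at 87.6, 148 and 164 CPM in the same order of arms. In B it was at 0.0853, 0.0774 and 0.333 CPM, from 4, 4 and 18 reads. The lowest L or bi library, bi MYC, stood far above the highest B library, B control. The log2 fold change was 10.41 ± 0.51 in L against B (adjusted p = 2.55e-06) and 9.66 ± 0.49 in bi against B (4.16e-06). In L against bi it was 0.75 ± 0.32 (adjusted p = 0.535), although each L library was above every bi library in plain CPM. After the TMM scaling used in the test, L MYC was at 148 CPM and bi control at 173 CPM. Leaving out the B control library, which held 18 of the 26 B reads, gave 11.35 and 10.65, and leaving out B Her2 gave 9.84 and 9.13.

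Ltf, lactoferrin, binds iron in milk and mucosal fluids and is also stored in neutrophil granules. It was at 468 CPM in L MYC, 130 CPM in L Her2 and 70.1 CPM in L control, and at 69.2, 1.40 and 6.07 CPM in bi MYC, bi Her2 and bi control. In B it was at 0.149, 0.0194 and 1.61 CPM, from 7, 1 and 87 reads. The lowest L library lay just above the highest bi library in plain CPM, and bi Her2 lay just below B control. After TMM scaling L control was at 68.7 CPM and bi MYC at 72.8 CPM. Ltf rose by 8.36 ± 1.46 in L against B (adjusted p = 0.00309), and each fit that left out 1 library kept the call. The value was 12.20 without B control, 10.03 without L control, 8.96 without bi control and 8.95 without bi MYC, and 7.64, 7.23 and 7.19 without B Her2, B MYC and L Her2. Between bi and B the value was 4.25 ± 1.33 (adjusted p = 0.0663) and in L against bi 4.12 ± 1.20 (0.224). The value of bi against B passed the threshold without B control (0.00807), L Her2 (0.0264) or L control (0.0278). Of 20 alternative fits 8 called this rise and 12 did not. DESeq2's Wald test (0.00973) and limma on log2(TPM + 0.1) (0.0422) were among the 8. In L against bi 2 of 20 called a rise, without the MYC arm (0.0231) and without the filter on low counts (0.000853). Of 13 markers of neutrophils and other white blood cells the summed level was 16.3 to 41.1 CPM in L and 13.7 to 21.7 CPM in bi, against 4.35 to 10.8 CPM in B. The neutrophil granule genes Elane, Mpo, Ngp and Camp were each at most 0.54 CPM in any library, and Adgre1 had 3 reads or fewer in each library of every population. Most of the sum in L was S100a8, at 7.77, 19.5 and 17.3 CPM in L MYC, L Her2 and L control, against 0.463 to 1.37 CPM in B, and S100a9. These calprotectin genes are also expressed by epithelia, and their part in the Ltf values was not tested.

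Trf, transferrin, carries iron in blood and is also secreted into milk. It was at 8.18 CPM in L MYC, 0.688 CPM in L Her2 and 1.28 CPM in L control, at 0.550, 0.415 and 0.378 CPM in the bi libraries and at 0.218, 0.261 and 0.278 CPM in the B libraries, in the same order of arms. L MYC stood apart, with 80.6% of the summed CPM of L, and L control was the next highest library. Trf rose by 3.05 ± 0.63 in L against B (adjusted p = 0.00768), by 3.67 without L Her2, by 2.06 without L MYC and by 2.33 without B MYC. The call was lost on deposited TPM values in limma (adjusted p = 0.174 and 0.208 with 0.1 and 1 added). Of the 31-base words of Trf transcripts 63.9% also occur in other genes, mostly in the overlapping locus Gm20425, which has 0 rows in the deposited tables, so reads of that locus cannot be told apart from reads of Trf in its counts. The hepatocyte markers, which would mark the main source of serum transferrin, were at 0.0664 to 0.159 CPM in L.

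Btn1a1, butyrophilin, is the receptor-like membrane protein that docks xanthine dehydrogenase at the budding milk fat droplet. It was at 9.08, 5.41 and 4.99 CPM in L MYC, L Her2 and L control, at 5.40, 2.12 and 3.21 CPM in the bi libraries and at 1.18, 1.24 and 1.21 CPM in the B libraries. The 3 B libraries were within 1.05-fold of each other, and every L and bi library lay above them. Btn1a1 rose by 2.33 ± 0.33 in L against B (adjusted p = 0.000979), and each fit that left out 1 library kept the call. Between bi and B it rose by 1.496 ± 0.33 (adjusted p = 0.0159), a call lost without B MYC (0.0872), bi control (0.0706) or bi MYC (0.0672) and on TPM values (0.0619 and 0.0882).

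Xdh, xanthine dehydrogenase, is an enzyme of purine breakdown as well as a structural partner in milk fat secretion. It was at 209, 168 and 298 CPM in L MYC, L Her2 and L control, at 346, 263 and 252 CPM in the bi libraries and at 714, 391 and 283 CPM in the B libraries. B MYC was the highest library and L Her2 the lowest, and L and B overlapped through their controls. The log2 fold change was -1.003 ± 0.33 in L against B (adjusted p = 0.0603). It passed the threshold without L control (-1.42, adjusted p = 0.0132), without B control (-1.42, 0.0145) and on TPM values in limma (0.0184 and 0.0295). Of 20 alternative fits 8 called this fall and 12 did not. Scaling by library totals (adjusted p = 0.039) and DESeq2's Wald test (0.0127) were among the 8. Of the 31-base words of Xdh transcripts 14.4% also occur in other genes.

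Mfge8, lactadherin, is a secreted protein that bridges phosphatidylserine on membranes and integrins on phagocytes. It was at 160, 136 and 108 CPM in the L libraries, at 111, 128 and 101 CPM in the bi libraries and at 213, 133 and 226 CPM in the B libraries, for MYC, Her2 and control. It varied least of the 9 genes, by 2.24-fold over all libraries. The log2 fold change was -0.53 ± 0.23 in L against B (adjusted p = 0.143) and -0.75 ± 0.23 in bi against B (0.0632). Both passed the threshold without the B Her2 library (-0.83, adjusted p = 0.0202, and -1.03, 0.0119).

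**Figure D2:**
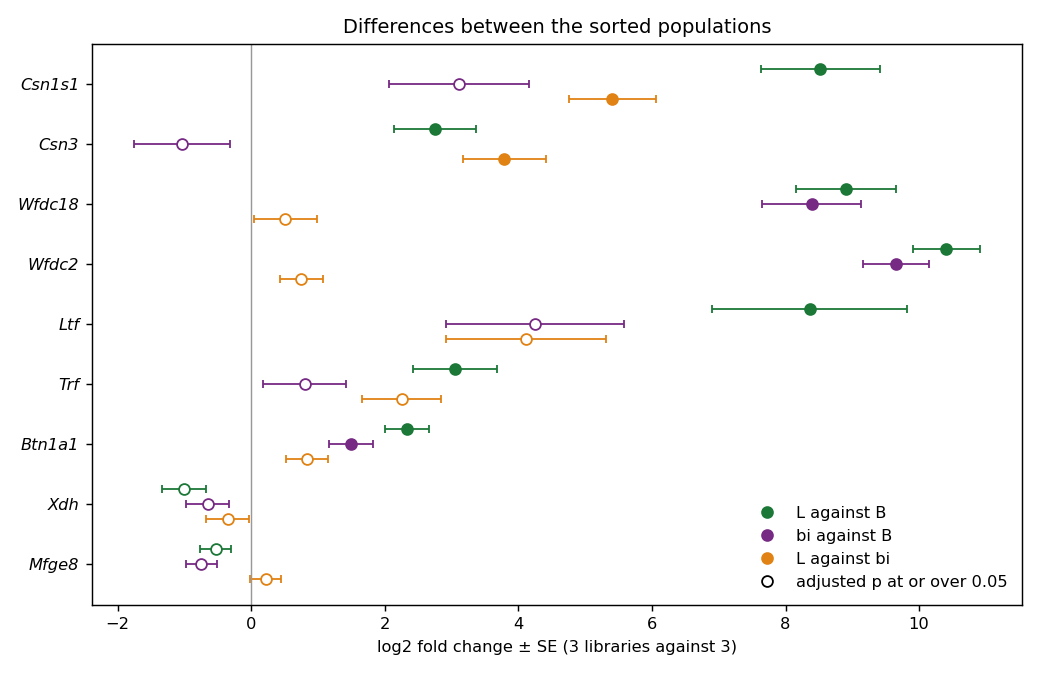
Points are log2 fold changes with their SE for each gene, from 3 libraries against 3, coloured by comparison and open where the adjusted p was 0.05 or more. Wfdc2 and Wfdc18 lie above 8 in both comparisons with B and at 0.75 and 0.51 in L against bi, whereas Csn1s1 and Csn3 lie at 5.41 and 3.79 there.

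By mean level, Wfdc2 and Wfdc18 were high in both EpCAM-high populations, the caseins and Trf mainly in L, Ltf and Btn1a1 in steps from L through bi to B, and Xdh and Mfge8 in all. Not all of these steps passed edgeR's test. L against bi was not called for Trf (2.25 ± 0.59, adjusted p = 0.163), Ltf (0.224) or Btn1a1 (0.84 ± 0.31, 0.417). For Btn1a1 bi MYC lay above L control, at 5.40 against 4.99 CPM. Ltf was not called in bi against B either (0.0663). Per kilobase, mean CPM in L was 265 for Wfdc2, 251 for Wfdc18, 81.2 for Ltf, 63.4 for Mfge8, 48.9 for Xdh, 10.1 for Csn1s1, 1.90 for Btn1a1, 1.32 for Trf and 0.623 for Csn3. In B it was 101 for Xdh and 89.8 for Mfge8, and between 0.0146 (Csn1s1) and 0.353 (Btn1a1) for the other 7. In bi it was 157 for Wfdc2, 152 for Wfdc18, 62.4 for Xdh, 53.2 for Mfge8, 9.32 for Ltf, 1.05 for Btn1a1, 0.174 for Trf, 0.154 for Csn1s1 and 0.0447 for Csn3. Neighbours in the order of L overlapped in their ranges over the 3 libraries, except Xdh, at 36.4 or more, and Csn1s1, at 27.6 or less. Of the CPM summed over the 9 genes in B MYC, B Her2 and B control, Xdh held 76.8%, 74.4% and 55.1% and Mfge8 23.0%, 25.3% and 44.1%.

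The other comparison the design allows is between the oncogene arms. Averaged over the 3 populations, none of the 9 was called in MYC against control, where 0.365% of all genes tested were called, or in Her2 against control, where 0.021% were. In edgeR 2 genes had an unadjusted p under 0.05 in MYC against control and 3 in Her2 against control, and DESeq2 and limma on TPM also called 0 in each. In MYC against Her2 Csn1s1 and Wfdc18 rose and none fell, against 4.57% called and 2.44% called higher among all genes tested. The median log2 fold change of the 9 genes was 1.28 in MYC against control, -0.16 in Her2 against control and 0.66 in MYC against Her2, against 0.03, -0.01 and 0.02 over all genes. The first 2 comparisons share the control libraries and each pair of comparisons shares an arm, so their values are given side by side.

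Csn1s1 differed by 2.75 ± 0.66 in MYC against control (adjusted p = 0.0970), by -2.93 ± 0.81 in Her2 against control (0.245) and by 5.68 ± 0.80 in MYC against Her2 (0.0074). Within L the MYC library was 12.0-fold above control (10.6 to 13.8) and the Her2 library at 0.127 of it (0.0842 to 0.184). Within bi the ratios were 6.71 (2.99 to 17.0) and 0.304 (0.0315 to 1.53), while in B both groups were at or under 3 reads. The call of MYC against Her2 was lost without L MYC (4.36, adjusted p = 0.0604) or L Her2 (4.48, 0.122) and on TPM values (0.14 and 0.294 with 0.1 and 1 added). MYC against control passed the threshold without B MYC (0.0325) or B control (0.0388).

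Wfdc18 differed by 1.51 ± 0.57 in MYC against control (adjusted p = 0.267), by -2.45 ± 0.60 in Her2 against control (0.176) and by 3.96 ± 0.60 in MYC against Her2 (0.00969), and it was higher with MYC than with Her2 in all 3 populations. The MYC library was 4.13-fold above control in L (4.01 to 4.25) and 5.37-fold in bi (5.17 to 5.59), but at 0.192 of it in B, from 4 reads against 24. The Her2 library was at 0.172 of control in L (0.160 to 0.184), at 0.353 in bi (0.329 to 0.379) and at most 0.131 of it in B, where it had 0 reads. The call was lost without L Her2 (adjusted p = 0.0644) or bi MYC (0.0649) and on log2(TPM + 1) (0.0909). MYC against control passed the threshold without B control (2.11, adjusted p = 0.035).

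Ltf followed the 2 oncogenes unevenly. Within L its level was 6.67-fold above control with MYC (6.48 to 6.86) and 1.86-fold above it with Her2 (1.80 to 1.92). Within bi the same ratios were 11.4 (10.46 to 12.5) and 0.231 (0.188 to 0.283), and within B 0.0926 (0.0362 to 0.199) and 0.0120 (0.000301 to 0.0687). The averaged differences were 1.73 ± 1.30 in MYC against control (adjusted p = 0.628), -1.33 ± 1.28 in Her2 against control (0.932) and 3.06 ± 1.22 in MYC against Her2 (0.205), with the widest SE of the 9 genes.

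Trf was 6.42-fold higher with MYC than in the control in L (5.16 to 8.05), whereas the ratios were 1.45 (0.861 to 2.43) in bi and 0.768 (0.308 to 1.83) in B. Csn3 was 4.35-fold higher with MYC (2.85 to 6.83) and 2.70-fold higher with Her2 (1.73 to 4.33) than in the control in L. Its averaged value was 1.28 ± 0.65 in MYC against control (adjusted p = 0.434) and 1.65 ± 0.64 in Her2 against control (0.465). Its level was higher with Her2 than in the control in all 3 populations, but outside L on few reads. These were 11 against 1 in bi and 11 against 7 in B. In B the Poisson intervals overlapped, at 0.106 to 0.381 CPM with Her2 and 0.0521 to 0.267 CPM in the control. Csn3 and Csn1s1 thus stood on different sides of the control in L Her2. Neither averaged difference with Her2 passed the test.

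Wfdc2 had another order, with the MYC library below control in each population, at 0.924 (0.902 to 0.948) in L, 0.535 (0.518 to 0.553) in bi and 0.256 (0.0630 to 0.777) in B. With Her2 it was at 1.79 of control in L (1.75 to 1.83), 0.902 in bi (0.881 to 0.924) and 0.232 in B (0.0572 to 0.705). The averaged value was -0.81 ± 0.37 in MYC against control (adjusted p = 0.371). The CPM of Xdh in the MYC library was 0.701 of control in L, 1.37 of it in bi and 2.53 of it in B (2.48 to 2.57). Btn1a1 was at 1.82 of control with MYC in L (1.60 to 2.07), 1.68 in bi (1.43 to 1.97) and 0.974 in B (0.668 to 1.42), and Mfge8 between 0.943 and 1.48 of it. None of these averaged differences passed the test.

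**Figure D3:**
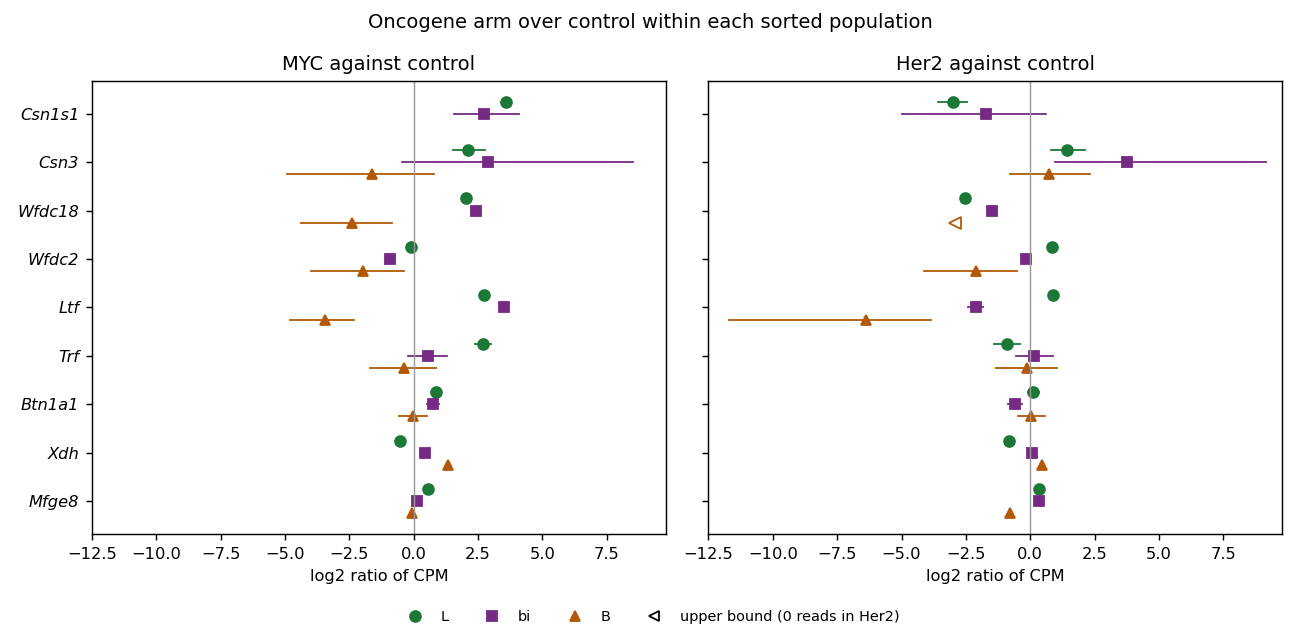
The log2 ratio of CPM in the MYC library (left) and the Her2 library (right) over the control library is plotted for each gene within L, bi and B, with exact binomial 95% intervals and an open triangle for an upper bound. Csn1s1 in B is left out because both libraries were at or under 3 reads. Wfdc18 and Ltf lie right of 0 in L and bi and left of it in B for MYC, and Ltf lies on different sides of 0 in L and bi for Her2.

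Markers of luminal progenitor or alveolar cells were summed beside these values. The 9 markers came to 289 CPM in L MYC, 59.4 CPM in L Her2 and 85.7 CPM in L control, to 71.9, 36.9 and 34.4 CPM in the bi libraries and to 9.61, 7.24 and 28.6 CPM in the B libraries. Of the 9 markers 5 were highest in L MYC among all 9 libraries, and 6 among the L libraries. Kit and Sox10 had 3 reads or fewer in each B library. The 8 hormone-sensing luminal markers summed to 150 CPM in L MYC, 142 CPM in L Her2 and 87.2 CPM in L control, to 50.0 to 167 CPM in bi and to 87.8 to 117 CPM in B, and 6 of these 8 were highest in L MYC among the L libraries and 4 among all 9. Much of these sums was Ly6a, the gene of the sort marker Sca-1, at 133 CPM in bi MYC and 104 CPM in B MYC. Areg made up 110 CPM in L Her2 and 58.7 CPM in B Her2. Prlr was at 16.7 to 94.2 CPM in L and 0.393 to 1.18 CPM in B, whereas Esr1 was at 3.27 to 6.96 CPM in L and 8.52 to 10.8 CPM in B. Of the 5 adipocyte markers 4 were highest in L MYC among the L libraries, at sums of 0.749 to 1.32 CPM. The part of these markers in the values of Csn1s1, Csn3, Ltf, Trf and Wfdc18 was not tested.

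Genes around the 9 were read from lists of the same pathways. Of the list genes named below, Muc15, Cidea, Wfdc12, Sftpd, Pigr and Slc34a2 had a mean in B under the 0.144 CPM of the filter. They were kept mainly for their level in other libraries, so their calls against B are given as a description. Wfdc12 and Pigr were also under it in the Her2 mean, and their calls in MYC against Her2 are likewise a description. Over all genes tested, 20.8% were called in L against B (11.5% higher), 13% in bi against B (7.88% higher) and 0.751% in L against bi. Between the arms 0.365% were called in MYC against control, 0.021% in Her2 against control and 4.57% in MYC against Her2 (2.44% higher). The counts of each list stand beside these shares and are given as a description. In the list of milk proteins and milk fat globule genes 13 of 20 were tested. In L against B 5 rose and 0 fell, of which 3 are among the 9 genes described. The other 2 of 8 were Muc15, a membrane mucin of the fat globule, at 6.31 and 0.104 mean CPM in L and B (5.33 ± 0.62, adjusted p = 0.000305), and Cidea, a lipid droplet protein, at 1.01 and 0.0443 mean CPM (4.34 ± 0.74, 0.0027). Between bi and B 3 of 13 rose, Muc15 by 4.84 ± 0.61 (adjusted p = 0.000909). The list median in L against B was 0.67, or 0.43 without the 9 genes, against 0.04 over all genes tested. In MYC against control Spp1, the secreted phosphoprotein osteopontin of milk, fell by 1.98 on the log2 scale, at 208 against 798 mean CPM (adjusted p = 0.0283). It also fell in MYC against Her2, by 2.82 (0.00315), as did Pthlh, the calcium-mobilising hormone of lactation, by 2.59 (0.0208), so that 1 gene of the 13 rose there, Csn1s1, and 2 fell.

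In the list of lactogenic signalling and alveolar regulators 6 of 21 tested genes rose in L against B and 2 fell. Ehf, an epithelial ETS factor, rose by 6.03 ± 0.20 (394 against 5.47 mean CPM, adjusted p = 8.47e-07). Prlr, the prolactin receptor, rose by 5.81 ± 0.63 (54.6 against 0.741 mean CPM, 0.000196) and Elf5, the alveolar ETS factor, by 3.30 ± 0.54 (5.99 against 0.375 mean CPM, 0.00224). Jak2, the kinase bound to that receptor, fell by 1.37 (adjusted p = 0.000627), and Nr3c1, the glucocorticoid receptor, fell by 0.84 (0.00788). Stat5a and Stat5b, which carry the prolactin signal to casein genes, differed by -0.30 ± 0.33 (adjusted p = 0.595) and 0.01 ± 0.19 (0.985); this pair was named after its values were seen. Between bi and B 4 rose and 2 fell, between L and bi 1 rose, and the list medians were 0.28, 0.18 and 0.28 in L against B, bi against B and L against bi.

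Between the arms the same list had 5 genes higher and 0 lower in MYC against Her2. Ehf was higher by 2.32 ± 0.17 (361 against 65.2 mean CPM, adjusted p = 0.000402) and Elf5 by 2.48 ± 0.53 (5.47 against 0.592 mean CPM, 0.0324). Prlr was at 94.2, 16.7 and 52.9 CPM in L MYC, L Her2 and L control, the order that Csn1s1, Wfdc18 and Trf also had in L. In Her2 against control Ehf fell by 1.53 (adjusted p = 0.0485), 1 of only 5 genes called among the 23834 tested.

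In the WAP four-disulfide and antileukoproteinase family 6 of the 15 genes in the files were tested, and 3 rose and 0 fell in L against B, Wfdc2, Wfdc18 and Wfdc12. Wfdc12 rose by 4.48 ± 1.22 (4.05 against 0.0731 mean CPM, adjusted p = 0.0279). In MYC against Her2 Wfdc12 rose by 6.61 ± 1.11 (7.72 against 0.0586 mean CPM, 0.0139), beside Wfdc18, and 3 of 6 rose in all. In MYC against control Wfdc12 was at 4.13 ± 0.92 (adjusted p = 0.0823). The medians of the 6 genes were 2.77 in L against B and 2.76 in MYC against Her2.

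Among 17 tested secreted defence proteins of milk and mucosa 7 rose and 2 fell in L against B. Beside Ltf, Sftpd, a collectin, rose by 6.71 ± 0.86 (7.91 against 0.0441 mean CPM, adjusted p = 0.000534), and Pigr, which carries immunoglobulin A into milk, by 6.45 ± 1.16 (8.71 against 0.0377 mean CPM, 0.00373). Saa3, an acute-phase apolipoprotein, fell by 3.16 (3.35 against 38.0 mean CPM, 7.48e-05), and Csf1, a macrophage growth factor, fell by 1.37 (0.00499). In MYC against Her2 8 rose and 0 fell, among them Hp, haptoglobin, by 7.40 ± 0.68 (100 against 0.320 mean CPM, adjusted p = 0.00191) and Pigr by 5.51 ± 1.03 (8.95 against 0.109 mean CPM, 0.0203). The list median there was 1.88, or 1.68 without Ltf, which was not called in that comparison. Of these genes 2 rose and 3 fell between bi and B, 3 rose between L and bi, and in MYC against control 1 rose, Saa3, by 2.16 ± 0.28 (0.0230).

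The iron list was divided, with 6 of 17 tested genes higher and 5 lower in L against B. Ltf, Trf and Slc40a1, the iron exporter ferroportin, rose, the last by 3.23 ± 0.40 (11.3 against 1.14 mean CPM, adjusted p = 0.000444). Lrp1, a scavenger receptor, fell by 2.31 (469 against 2167 mean CPM, 0.000667), Steap3, a ferrireductase, by 1.48 (0.00067), and Hfe, a partner of the transferrin receptor, by 1.40 (0.0127). In MYC against control Tfrc, the transferrin receptor, fell by 1.09 (202 against 428 mean CPM, adjusted p = 0.0383), 1 of 17. The list median in L against B was -0.12.

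Of 6 tested butyrophilins Btn1a1 alone was called in L against B and in bi against B, and none was in the other 4 comparisons. Of 20 tested genes of lactose synthesis and milk ion transport 6 rose and 2 fell in L against B. Slc34a2, a sodium-phosphate cotransporter of lactating epithelium, rose by 8.33 ± 0.51 (18.0 against 0.0512 mean CPM, adjusted p = 7.21e-06). Galk1, galactokinase, rose by 3.26 ± 0.25 (adjusted p = 2.73e-05). Slc2a1, the glucose transporter, fell by 2.02 (157 against 659 mean CPM, 0.00839), and B4galt1, the catalytic subunit of lactose synthase, fell by 1.16 (0.00212). Slc34a2 fell in Her2 against control, by 3.53 (0.858 against 10.0 mean CPM, adjusted p = 0.0485), and rose in MYC against Her2 by 3.94 ± 0.41 (0.00328). The median of the 20 genes was 0.02 in L against B.

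**Figure D4:**
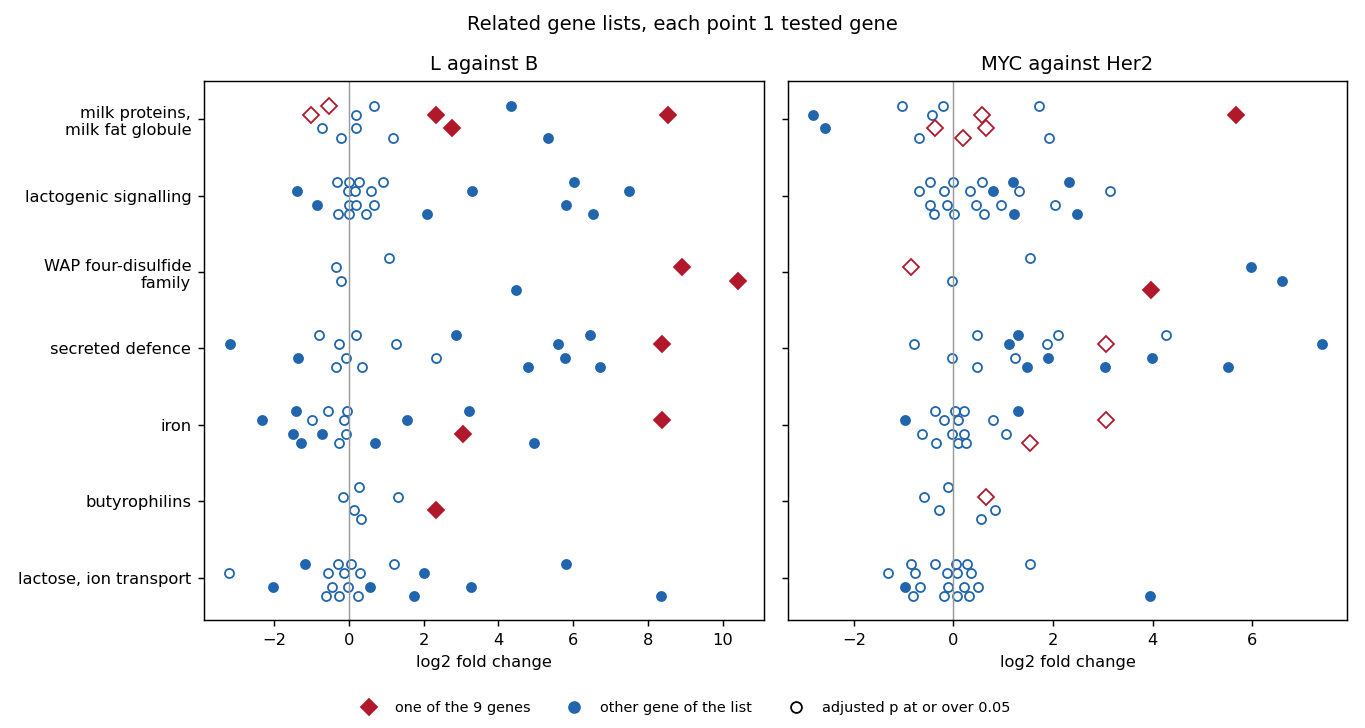
Each point is the log2 fold change of 1 tested gene in L against B (left) and MYC against Her2 (right), by list, with diamonds for the 9 genes and open symbols where the adjusted p was 0.05 or more. List medians lie between -0.21 and 0.67 except in the WAP four-disulfide family (2.77 left, 2.76 right) and secreted defence (1.27 and 1.88). In MYC against Her2 the called secreted defence genes all lie right of 0.

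The genes whose profiles over the 9 libraries were nearest to each member were sought among 10159 genes with a mean of at least 5 CPM, by the root mean square difference of log2 CPM centred on its own mean. Wfdc2 was nearest to Epcam, at 0.27, a gene whose protein was used for the sort, and then to Kcnk1, at 0.49; the spread of Wfdc2 itself was 4.75. Wfdc18 was nearest to Bcl11a (1.06) and Shisa2 (1.12), against a spread of 4.49, and Ltf to Gabrp (0.996) and Chil1 (1.25), against 4.28. Csn1s1 was nearest to Slc15a2 (1.40) and Tjp3 (1.41), against a spread of 3.23. Csn3 was nearest to Fosb (0.85) and Cxcl2 (0.99), against 1.62, Trf to Atp1b1 (0.65) and Ifih1 (0.66), against 1.43, and Btn1a1 to Chmp4c (0.21) and Crybg2 (0.25), against 1.03. Xdh was nearest to Tnfrsf21 (0.10) and Cpt1a (0.21), and Mfge8 to Fmn1 (0.12) and Ston2 (0.15), against spreads of 0.59 and 0.39. These distances come from the same 9 libraries and share their totals, and they are given as a description. Among the 9 genes themselves the nearest pairs were Xdh with Mfge8, at 0.56, and Trf with Btn1a1, at 0.86, while the caseins lay 2.42 apart.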

How the data were processed

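Bulk RNA of 9 sorted Comma-1D libraries was prepared with a stranded, ribosomal RNA-depleting kit, per the labels' protocols, although the molecule label reads polyA RNA. The deposited files hold, per gene, estimated counts and TPM from Salmon 0.9.1 on mm10, per the file headers and the submitters' processing notes. Of 54281 gene identifiers, 53544 matched a symbol with their version, 563 without it and 174 not at all. Levels are estimated counts over the library total (CPM), with exact Poisson 95% intervals; ratios of libraries have exact binomial intervals. Both cover counting error only, and 0 reads were bounded by 3 reads. No library has a replicate within its population and arm, so an additive model of population and arm was fitted.

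Estimated counts were rounded, filtered by edgeR's filterByExpr (minimum count 10, total 15), scaled by TMM and tested with edgeR 4.0.16's quasi-likelihood test in R 4.3.3 over 23834 genes, with 4 residual degrees of freedom and Benjamini-Hochberg adjustment at 0.05. SE is that of the log2 fold change. The procedure was tested on simulated data whose changed genes had a mean of at least 5 CPM and no dependence of arm on population. Csn1s1, Csn3, Trf and Btn1a1 lie under that mean, so the simulation does not cover them. Wfdc18, Wfdc2 and Ltf stood on opposite sides of the control in different populations, by at least 1 on the log2 scale each way. The procedure was not tested on genes with such a dependence, so these 3 genes are not covered either. Alternatives were DESeq2 1.42.0, limma 3.58.1 on log2(TPM + 0.1) and log2(TPM + 1), other scalings and filters, and fits without 1 library, arm or population. Python 3.11.15 with pandas 2.3.3, scipy 1.17.1 and numpy 2.4.6 was used for the rest. The 9 genes, the gene lists and the marker lists were chosen with earlier results of these data known. Named are the 9 genes everywhere, and of each list the called genes of at least 1 CPM with the largest changes, up to 3 each way in L against B and 2 otherwise. Some genes of the lists are not reported by name here.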

Additional observations from a re-analysis of the deposited data

Results flagged for a closer look

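Some genes stood on opposite sides of the control in different populations, by at least 1 on the log2 scale each way. These differences rest on 1 library each and were not tested. The log2 ratio of MYC to control for Wfdc18 was 1.89 in L and 2.42 in bi, against -1.91 in B, a difference of 3.80 between L and B and of 4.33 between bi and B. For Ltf it was 2.58 in L and 3.50 in bi, against -3.05 in B, differences of 5.63 and 6.56. The log2 ratio of Her2 to control for Ltf was 1.07 in L, against -2.27 in bi and -5.01 in B, differences of 3.34 and 6.08. For Wfdc2 the ratio of Her2 to control was 1.02 in L and -1.72 in B, a difference of 2.73. The values in B come from at most 24 reads of Wfdc18, 18 of Wfdc2 and 87 of Ltf per library.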

How the results depend on the processing

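Of 1046 fold changes under alternatives, 943 kept their direction and side of the threshold, 41 gained a call, 33 lost one and 29 changed sign, none of these in a comparison called for its gene. Without a filter on low counts, 6 of the 9 genes were called in bi against B, 4 in L against bi, 2 in MYC against control and 2 in Her2 against control. Among the 39687 genes then tested, 3796, 698, 944 and 619 were called in these comparisons. The calls of Mfge8 in bi against B and of Csn1s1 and Wfdc18 in Her2 against control were falls. With at least 1 CPM in 3 libraries, which left fewer of the genes to test, 4 were called in L against B, 0 in L against bi and 1 in MYC against Her2. Among the 14905 genes then tested, 4720, 93 and 1370 were called. DESeq2's Wald test called 5 in bi against B, Mfge8 among them as a fall (-0.78), against 3646 of 23834 genes. Scaling by library totals left 1 call in L against bi, against 167 of 23834 genes. A fit of only the 2 groups compared gave 1 in Her2 against control, a fall of Wfdc18, against 196 of 23003 genes. In limma 0 were called in L against bi on either TPM scale, and in MYC against Her2 1 with 0.1 added and 0 with 1 added. Of all genes 74 and 2 were called in L against bi with 0.1 and 1 added, and 904 and 500 in MYC against Her2. Without the MYC, Her2 or control arm 1 was called in L against bi each time, without population B 2 in MYC against control and without population L 0 in MYC against Her2. The call in L against bi was of Ltf without the MYC arm, and of Csn1s1 without the Her2 or the control arm. Csn3 lost its call there without the MYC arm and without the control arm. Csn1s1 was not tested without the MYC arm, Csn3 was not without the Her2 arm, and neither was without population L. Among all genes 844 of 24492 were called in MYC against control without population B, and 256 of 22419 in MYC against Her2 without population L. Without the MYC, Her2 or control arm 96, 74 and 116 were called in L against bi. Leaving out 1 library gave 7 to 8 calls in L against B, 2 to 5 in bi against B, 0 to 2 in L against bi, 0 to 2 in MYC against control, 0 in Her2 against control and 0 to 2 in MYC against Her2. Among all genes the ranges in this order were 3324 to 5328, 1843 to 3276, 33 to 241, 6 to 492, 0 to 89 and 217 to 1499. The further calls in L against B were falls, of Xdh without L control or B control and of Mfge8 without B Her2. Mfge8 was also called lower in bi against B without B Her2.

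Signs changed as follows, and the cause was not tested. For Csn3 in MYC against Her2 the log2 fold change was 0.018 on log2(TPM + 1). For Wfdc2 in Her2 against control it was -0.079 in DESeq2's Wald test, -0.25 on log2(TPM + 0.1) and -0.70 without population L. Without population bi it was -0.15 for Ltf in MYC against control and 0.19 for Btn1a1 in Her2 against control. For Xdh it was -0.15 in MYC against control without population B and 0.17 in Her2 against control without population L. For Mfge8 in Her2 against control it was 0.012 with DESeq2 size factors and 0.012 in its Wald test, 0.028 without the filter, 0.031 with the 1 CPM filter and 0.38 without population B, and in MYC against Her2 -0.14 without population B. Over fits without 1 library the ranges were -1.32 to 0.15 for Csn3 and -0.094 to 0.33 for Mfge8 in MYC against Her2. In Her2 against control they were -0.55 to 0.35 for Wfdc2, -0.65 to 0.42 for Trf, -0.30 to 0.24 for Btn1a1, -0.49 to 0.31 for Xdh and -0.19 to 0.29 for Mfge8. In MYC against control they were -0.34 to 3.17 for Ltf and -0.012 to 0.84 for Xdh. In L against bi they were -0.82 to 0.0040 for Xdh and -0.00059 to 0.38 for Mfge8.

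The additive fit already compares populations within arms and arms within populations; with 1 library for each, there is no further replicate block. Depth limits Csn1s1, Wfdc18, Wfdc2 and Ltf in B, where the MYC and Her2 libraries held 0 to 7 reads. It also limits Csn3 in bi and B, at 1 to 11 reads per library, and Trf in B, at 10 to 15 reads. Csn1s1 had 2 reads in bi Her2 and 8 in bi control.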
